A study of Arabidopsis thaliana with 29 samples.

Results

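Plants mutated in Polycomb repressive complex 1 (PRC1) switched on 23 genes that were almost silent in Col-0, in *clf-29* and in both LHP1 mutant lines. These 23 genes were chosen from the 33602 genes of the RNA-seq count files by their counts scaled to the sum of gene counts in a library (CPM). A gene was taken if it had under 0.3 CPM in each of the 6 libraries of Col-0, *clf-29*, *tfl2-2* and *lhp1-6*, and 2 CPM or more in each of the 4 libraries of *atbmi1a,b* and *atring1a,b*. The rule named 8 seed maturation genes to be left out, and none of them met both limits. In all, 12391 genes met the first limit, so that the 23 genes stand beside 12368 other silent genes. Levels in those 10 libraries chose the genes and are given only as a description. Libraries of *clf-29swn-21* and *swn-21* were not used in the choice.

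Polycomb group (PcG) proteins keep developmental genes silent. In Arabidopsis, PRC2 writes trimethylation on lysine 27 of histone H3 (H3K27me3) through the methyltransferases CURLY LEAF (CLF) and SWINGER (SWN), LIKE HETEROCHROMATIN PROTEIN 1 (LHP1) binds this mark, and the RING finger proteins AtBMI1 and AtRING1 form the core of PRC1 and ubiquitinate histone H2A. Loss of PRC1, or of CLF together with SWN, is known to let seedlings express seed and embryo programmes.

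The study profiled RNA in 14 libraries and H3K27me3 in 10 libraries of 2-week-old seedlings in the Col-0 background. *atbmi1a,b* carries mutations in AtBMI1A and AtBMI1B, *atring1a,b* in AtRING1A and AtRING1B, *clf-29swn-21* in CLF and SWN, *swn-21* in SWN, *clf-29* in CLF, and *tfl2-2* and *lhp1-6* are independent mutant lines of LHP1. Each genotype had 2 RNA libraries, except that *tfl2-2* and *lhp1-6* had 1 each. Plants grew in long days. The labels of the RNA libraries give 21 °C for both LHP1 lines and for the first library of each other genotype except *swn-21*. They give 22 °C for the second libraries and both *swn-21* libraries. Among the H3K27me3 libraries, *lhp1-6* and every second replicate are labelled 22 °C, and the rest 21 °C. Controls without antibody are present only at 21 °C. Differences between first and second H3K27me3 libraries, or between the H3K27me3 libraries of *tfl2-2* and *lhp1-6*, therefore cannot be told apart from this split, whose effect was not tested. First and second RNA libraries of a genotype grown at both temperatures cannot be told apart from it either. The comparison of *clf-29swn-21* with *swn-21* is unbalanced, since both *swn-21* libraries are labelled 22 °C. The labels give seedlings without roots for every library, whereas by the methods whole *clf-29swn-21* plants were taken from medium and the other genotypes came from soil, so genotype and growth cannot be told apart in any comparison with *clf-29swn-21*. The methods name biological duplicates for only some genotypes, and the spread between the *clf-29swn-21* or the *swn-21* libraries may be technical.

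The libraries held 17277027 to 36205758 gene counts. Levels of CLF were 1.72 and 2.60 CPM in *clf-29swn-21* and 26.6 and 29.3 CPM in *swn-21*. Levels of SWN were 131 and 115 CPM in *clf-29swn-21* and 88.2 and 87.2 CPM in the libraries labelled *swn-21*, against 46.8 and 68.2 CPM in Col-0, so that SWN counts were not reduced and do not check that label. RING1B had 1.72 and 0.678 CPM in *atring1a,b*, and RING1A had 631 and 813 CPM there, against 13.9 and 17.8 CPM in Col-0. AtBMI1A (DRIP2 in the annotation) had 14.1 and 22.1 CPM in *atbmi1a,b*, against 13.97 and 10.70 CPM in Col-0. AtBMI1B (DRIP1) had 4.45 and 4.77 CPM there, against 11.8 and 16.0 CPM in Col-0. Counts of AtBMI1A and RING1A were thus not reduced in their mutants. Counts summed over a gene do not show the loss of single exons, and the paper reports that it checked each genotype by RNA-seq. In *clf-29swn-21*, 12 leaf photosynthesis markers summed to 4072 and 7042 CPM, against 21651 and 20425 CPM in *swn-21*, and 24 root markers summed to 3693 and 1771 CPM, against 468 and 459 CPM in *swn-21*. PYK10, an abundant root glucosidase, made up most of both root sums, and the root hair gene EXPA7 had 5.19 and 0.347 CPM in *clf-29swn-21* and 0 in both *swn-21* libraries. The part of this tissue difference in the results below was not tested.

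The 23 genes were all protein coding and lay on every nuclear chromosome, with 7, 2, 4, 6 and 4 genes on chromosomes 1 to 5. The nearest pair, AT4G35370 and IDH-III, lay 90953 bp apart, so that no members were neighbours. Annotated F-box proteins, which choose targets for ubiquitination, made up 5 of the 23 genes (21.7%), against 2.87% of 26712 protein coding genes. The annotation notes mention the sperm cell for 3 members, AT3G12470, AT4G35370 and AT5G66980, and this note stands at 0.887% of protein coding genes. Shares of F-box genes and of this note were not computed over the other silent genes. Whether the 23 genes differ in them from silent genes at large was therefore not tested. None of the 23 genes was in short, incomplete lists of seed storage protein, oil body, late embryogenesis abundant (LEA), embryo regulator, floral organ identity, root or leaf genes. Members may still belong to these programmes, since the lists leave out many genes. Several members, but not all, resemble a gene that Col-0 already expressed. On a scale per length (RPKM, CPM divided by exon length in kilobases), mean levels in Col-0 were 0.0272 for PKR2, 0.0788 for IDH-III and 0 for AT4G18330. The best protein matches that the annotation names for them had mean RPKM in Col-0 of 26.6 (PKL, for PKR2), 43.0 (IDH1, for IDH-III) and 64.3 (EIF2 GAMMA, for AT4G18330). Best matches of other members were themselves near 0 in Col-0, such as those of AT1G60570 (0 RPKM), AT5G44220 (0.0598) and AT1G74140 (0.0793). No share of expressed matches over all genes was computed, so this is not a trait of the set.

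Promoters of 7 members are printed to show the sequence before genes with the most different behaviour. The first 3 genes reached the highest levels in *clf-29swn-21*, the next 2 were high in PRC1 mutants and near 0 in *clf-29swn-21*, and the last 2 hold a telo-box. Each run gives the 250 bases before the annotated start of the gene, read from the TAIR10.1 genome (RefSeq), 5′ to 3′ on the strand of the gene. Capitals mark the RY repeat CATGCA, a site of B3 domain factors, and the telo-box AAACCCT, which factors that recruit PRC2 in Arabidopsis recognise, on either strand.
AT1G65090 (chr1:24183301-24183550, minus strand): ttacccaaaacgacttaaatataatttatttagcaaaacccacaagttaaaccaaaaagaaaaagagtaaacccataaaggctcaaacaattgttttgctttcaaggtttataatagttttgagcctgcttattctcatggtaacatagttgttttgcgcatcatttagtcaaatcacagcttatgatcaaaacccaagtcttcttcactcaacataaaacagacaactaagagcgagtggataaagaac
AT1G47540 (chr1:17456187-17456436, minus strand): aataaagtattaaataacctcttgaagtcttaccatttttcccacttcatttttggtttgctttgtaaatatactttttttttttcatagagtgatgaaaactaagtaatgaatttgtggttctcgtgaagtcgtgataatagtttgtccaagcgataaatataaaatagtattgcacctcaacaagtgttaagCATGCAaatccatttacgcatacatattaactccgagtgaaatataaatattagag
AT1G03106 (chr1:749035-749284, minus strand): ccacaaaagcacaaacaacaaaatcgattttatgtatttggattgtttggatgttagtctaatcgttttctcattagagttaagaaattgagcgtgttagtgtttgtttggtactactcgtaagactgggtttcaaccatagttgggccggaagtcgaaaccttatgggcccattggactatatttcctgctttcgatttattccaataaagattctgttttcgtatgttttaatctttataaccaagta
PKR2 (chr4:15431100-15431349, plus strand): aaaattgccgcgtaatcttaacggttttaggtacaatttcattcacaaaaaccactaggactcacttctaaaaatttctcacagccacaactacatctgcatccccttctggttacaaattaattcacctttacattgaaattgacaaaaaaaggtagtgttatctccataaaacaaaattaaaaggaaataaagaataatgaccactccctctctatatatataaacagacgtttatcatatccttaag
AT1G74140 (chr1:27876655-27876904, plus strand): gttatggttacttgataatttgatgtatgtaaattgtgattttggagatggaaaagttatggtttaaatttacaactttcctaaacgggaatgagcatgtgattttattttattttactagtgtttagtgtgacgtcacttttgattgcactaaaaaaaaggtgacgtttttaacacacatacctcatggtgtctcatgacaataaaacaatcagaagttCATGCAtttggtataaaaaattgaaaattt
AT4G18900 (chr4:10356215-10356464, plus strand): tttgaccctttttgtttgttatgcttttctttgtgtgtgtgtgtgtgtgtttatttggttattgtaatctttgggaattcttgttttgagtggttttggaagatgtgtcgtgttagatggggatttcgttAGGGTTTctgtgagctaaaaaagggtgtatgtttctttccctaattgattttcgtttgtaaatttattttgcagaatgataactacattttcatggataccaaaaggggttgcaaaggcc
AT1G60570 (chr1:22311586-22311835, plus strand): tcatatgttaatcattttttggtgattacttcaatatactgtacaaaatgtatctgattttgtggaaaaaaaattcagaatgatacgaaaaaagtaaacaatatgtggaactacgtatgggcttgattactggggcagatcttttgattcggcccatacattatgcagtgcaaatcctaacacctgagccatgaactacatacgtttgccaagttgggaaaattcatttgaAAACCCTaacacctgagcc

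The telo-box AAACCCT was found on either strand in 5 of the 23 promoters (21.7%), against 7.27% of 26711 promoters of the same length and 10.3% of those of 6249 other silent genes. The 5 genes were AT1G60570, AT1G69630, AT4G13985 (FBD1), AT4G18330 and AT4G18900. The RY repeat was found in 4 promoters (17.4%), those of AT1G47540, AT1G74140, AT3G12470 and AT5G09210, against 8.51% of all promoters and 11.4% of those of other silent genes. The ABRE core ACGTG, a site of bZIP factors of abscisic acid signalling, was found in 4 promoters (17.4%), against 23.1% of all. The G-box CACGTG, which contains the ABRE core, was found in 1 promoter (4.35%), that of AT4G18330, against 6.58% of all. On the gene's own strand alone the telo-box was in 3 and the ABRE core in 2 promoters. Of the 3 genes with the highest levels in *clf-29swn-21*, AT1G47540 held an RY repeat, 56 to 51 bases before its start, and AT1G65090 and AT1G03106 held none of these motifs.

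**Figure D1:**
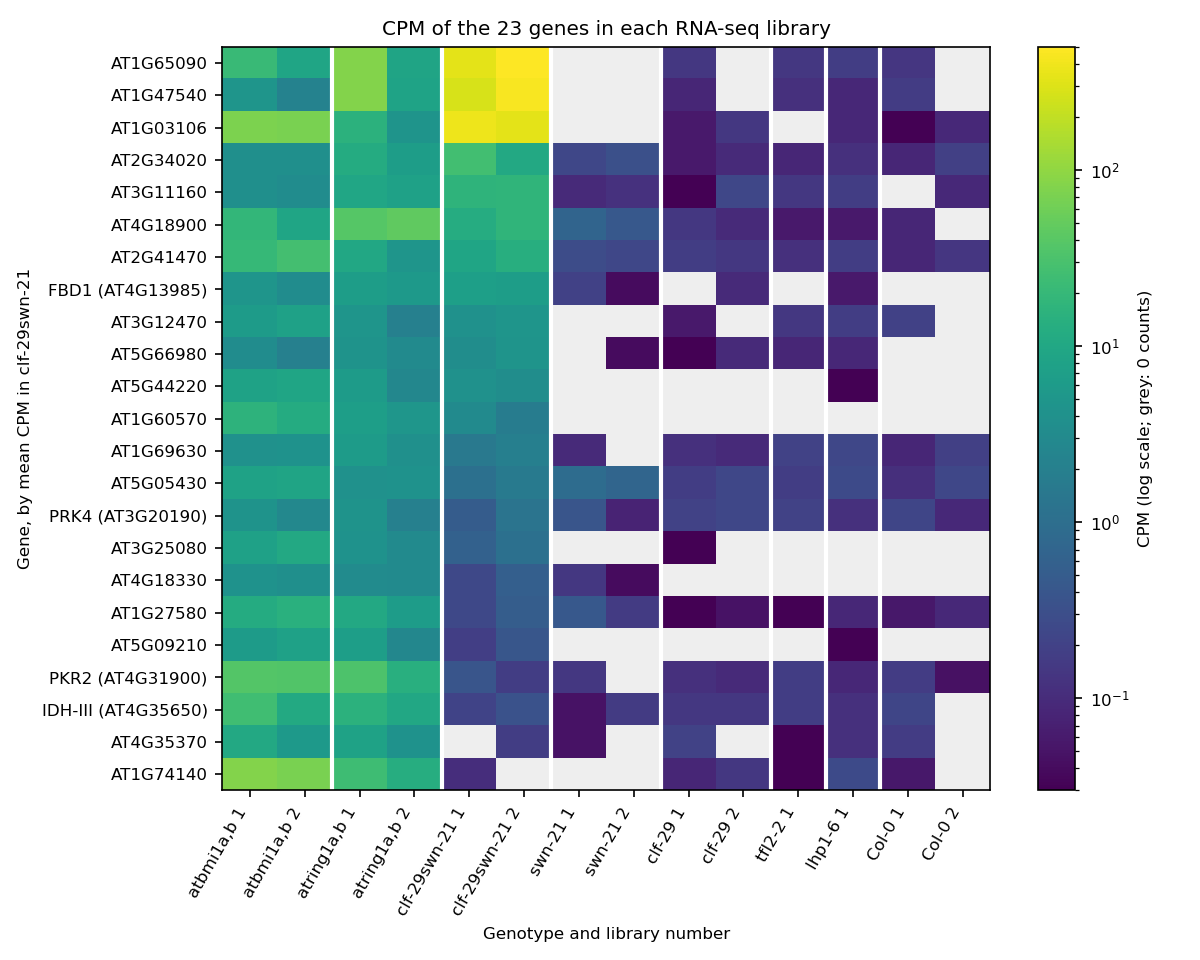
Levels of the 23 genes in each RNA-seq library, as CPM on a log colour scale, with genes ordered by their mean in *clf-29swn-21* and grey cells for 0 counts. The left 4 columns (PRC1 mutants) are at 2 CPM or more for every gene and the right 6 columns (*clf-29*, LHP1 lines, Col-0) under 0.3 CPM, as the rule requires, while the *clf-29swn-21* columns run between 0 and 497 CPM.

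The levels that chose the genes varied widely among them. Mean CPM over the 4 *atbmi1a,b* and *atring1a,b* libraries was highest for AT1G74140 (47.2), AT1G03106 (41.1), AT1G65090 (30.6), PKR2 (30.1) and AT4G18900 (28.2), and lowest for AT5G66980 (3.25). No member exceeded 0.265 CPM in *clf-29*, the LHP1 lines or Col-0, and AT1G60570 had no count in any of these 6 libraries. At the limit of 0.3 CPM, AT1G74140 and AT5G05430 (each 0.265) and AT3G11160 (0.241) were just inside by their highest silent library, and AT3G61340 (0.338), OLEO1 (0.353) and RE2 (0.353) just outside. At the limit of 2 CPM, PRK4 (2.03), AT3G12470 (2.08) and AT5G66980 (2.09) were just inside by their lowest PRC1 library, and VIN3 (1.96), AT4G36700 (1.95) and AT5G11570 (1.82) just outside. VIN3 encodes a partner of PRC2 that is known for silencing FLC in the cold, and OLEO1 encodes an oleosin of seed oil bodies.

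Levels of the genes were not alike in *atring1a,b* and *atbmi1a,b*. For 11 members both *atbmi1a,b* libraries lay above both *atring1a,b* libraries, for 5 members they lay below, and for 7 the libraries overlapped. No share over all genes was computed for this split, and these levels chose the genes, so it shows no lean of the set. AT1G47540 leaned most to *atring1a,b*, with a ratio of the mean of *atring1a,b* to that of *atbmi1a,b* of 13.0, before AT4G18900 (3.11) and AT1G65090 (2.96). AT1G03106 leaned most to *atbmi1a,b*, with a ratio of 0.140, before AT1G74140 (0.242) and AT2G41470 (0.317). The first *atring1a,b* library was higher than the second for 21 of the 23 genes (median ratio 1.81), whereas it was higher for 58.1% of all genes with counts (median ratio 1.09). The corresponding values for the *atbmi1a,b* libraries were 14 of 23 genes (median ratio 1.12), beside 54.5% of all genes (1.06). Seed storage transcripts differed the same way, with 3382 CPM in the first and 210 CPM in the second *atring1a,b* library for 13 genes summed, and their part in the member levels was not tested. Leaving the first *atring1a,b* library out of the rule, a check chosen after seeing the data, added no gene to the 23. It could not have removed any, so it does not test the part of that library.

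The comparison of *clf-29swn-21* with *swn-21* asks whether these genes also need CLF and SWN together to stay silent, and no library of the rule stands in the contrast, although all 14 libraries entered the fit and so set its filter and spread. By edgeR's quasi-likelihood test, 15 of the 23 genes (65.2%) were higher in *clf-29swn-21* at an adjusted p under 0.05 and a log2 fold change above 1, whereas 14.9% of the 22060 genes tested were called higher. Of the 23 genes, 7 passed the filter on low counts only through libraries outside the contrast, where the rule had made them high, namely AT1G27580, AT1G74140, AT4G18330, PKR2, AT4G35370, IDH-III and AT5G09210, and only AT5G09210 of these was called. A fit of the 4 libraries of the contrast alone tested the other 16 and called 14 of them higher. Members low in *swn-21* passed the filter of that fit through their *clf-29swn-21* counts, so this number was favoured in advance. No member was called lower (13.2% of all genes). Levels near 0 in *swn-21* left little room for a lower call under any criterion, since 18 members were under 0.3 CPM in both *swn-21* libraries. At an unadjusted p under 0.05, 16 members were called higher (17.7% of all genes) and 0 lower (15.7% of all genes). DESeq2 called 15 members higher and 0 lower. Shares over all genes were not computed for DESeq2 or for the fit of the 4 libraries. The median log2 fold change of the 23 genes was 5.72, beside 0.07 over all genes tested. For the members it was 4.98 with AT1G74140 and AT4G35370, which had 3 counts or fewer in both groups, set to 0. In that median the other genes without *swn-21* counts stood at their lower bounds. Both *clf-29swn-21* libraries lay above both *swn-21* libraries for 20 members, as they did for 50.5% of all genes tested. In *clf-29swn-21*, 11 of the 23 genes (47.8%) reached 2 CPM in both libraries, and 314 of the 12368 other silent genes (2.54%) did so.

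**Figure D2:**
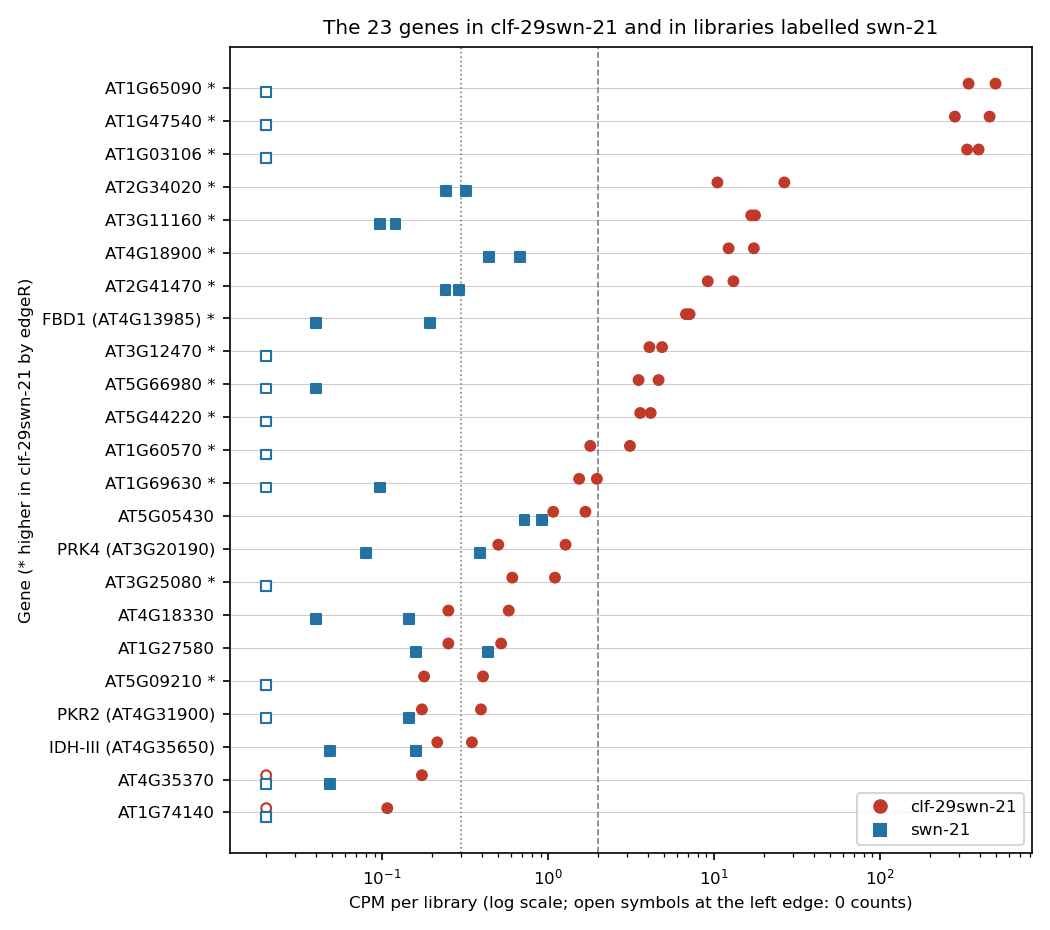
CPM of each of the 23 genes in the 2 *clf-29swn-21* libraries (red circles) and the 2 *swn-21* libraries (blue squares) on a log axis, with open symbols at the left edge for 0 counts, a dotted line at 0.3 CPM and a dashed line at 2 CPM. The stars mark the 15 genes called higher by edgeR, and the top 3 genes lie between 283 and 497 CPM in *clf-29swn-21* with 0 counts in *swn-21*.

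A group of 3 genes stood far above the rest in *clf-29swn-21*. AT1G65090, whose RefSeq name of nucleolin was not checked here, had 342 and 497 CPM in *clf-29swn-21* and no count in either *swn-21* library. Against the floor of 3 counts over both *swn-21* libraries (0.0657 CPM) it was at least 6100-fold higher (edgeR adjusted p = 0.00063). In the PRC1 mutants it had 22.0 and 8.95 CPM in *atbmi1a,b*, and 82.8 and 8.76 CPM in *atring1a,b*. AT1G65090 thus exceeded every PRC1 library in both *clf-29swn-21* libraries. It overlaps AT1G65080 on the other strand, which had 9.98 and 11.7 CPM in *clf-29swn-21* and 4.40 and 4.81 CPM in *swn-21*, and the use of strand in counting is not given in the sources used here.

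AT1G47540, which encodes a small knottin protein of the type of trypsin inhibitors, had 283 and 457 CPM in *clf-29swn-21* and no count in *swn-21*. It was at least 5315-fold higher (edgeR adjusted p = 0.00062). Levels were 4.75 and 2.20 CPM in *atbmi1a,b*, and 82.3 and 8.32 CPM in *atring1a,b*, so that the first *atring1a,b* library was 9.88 times the second. AT1G03106, an uncharacterized protein, had 393 and 335 CPM in *clf-29swn-21* and no count in *swn-21*. It was at least 5637-fold higher (edgeR adjusted p = 9.2e-05). Unlike the other 2 genes, AT1G03106 was higher in both *atbmi1a,b* libraries (74.0 and 70.4 CPM) than in the *atring1a,b* libraries (15.6 and 4.60 CPM). AT3G11160, another uncharacterized protein, was the only other member with both *clf-29swn-21* libraries above all 4 PRC1 libraries, at 16.7 and 17.7 CPM in *clf-29swn-21* and 0.0967 and 0.120 CPM in *swn-21* (log2 fold change 7.07 ± 0.82 SE, edgeR adjusted p = 0.00034).

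Of the 5 F-box genes, 4 were called higher in *clf-29swn-21*. FBD1 (AT4G13985) had 7.12 and 6.77 CPM in *clf-29swn-21* and 0.193 and 0.0401 CPM in *swn-21* (log2 fold change 5.72 ± 0.94 SE, edgeR adjusted p = 0.0024). AT5G44220 had 4.15 and 3.59 CPM in *clf-29swn-21* and no count in *swn-21*, which makes it at least 59.9-fold higher (edgeR adjusted p = 0.0012). AT1G60570, with kelch repeats, had 3.11 and 1.79 CPM in *clf-29swn-21* and no count in *swn-21*, and was at least 39.7-fold higher (edgeR adjusted p = 0.0012). These 3 genes were separated from *swn-21* in every pair of libraries. AT1G69630, the best protein match that the annotation names for FBD1, had 1.54 and 1.97 CPM in *clf-29swn-21* and 2 counts in *swn-21* in all, a ratio of 38.8 with a counting interval of 10.4 to 327 (edgeR adjusted p = 0.0013). AT1G27580, the remaining F-box gene, which overlaps a noncoding gene on its own strand, had 0.250 and 0.521 CPM in *clf-29swn-21* and 0.435 and 0.160 CPM in *swn-21*. The libraries of AT1G27580 overlapped (log2 fold change 0.18 ± 0.61 SE, edgeR adjusted p = 0.86), although it had 11.7 and 14.6 CPM in *atbmi1a,b* and 10.4 and 6.44 CPM in *atring1a,b*.

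Members that encode DNA-binding, RNA-binding or chromatin proteins split between called and not called. AT5G66980, a B3 domain transcription factor, had 3.51 and 4.63 CPM in *clf-29swn-21* and 1 count in *swn-21*, a ratio of 180 with a counting interval of 31.8 to 7134 (edgeR adjusted p = 0.00038). AT3G12470, with a ribonuclease H-like domain, had 4.08 and 4.86 CPM in *clf-29swn-21* and no count in *swn-21*, and was at least 66.6-fold higher (edgeR adjusted p = 0.0015). AT2G41470, named an agamous-like MADS-box protein by RefSeq, had 9.16 and 13.1 CPM in *clf-29swn-21* and 0.290 and 0.240 CPM in *swn-21* (log2 fold change 5.20 ± 0.48 SE, edgeR adjusted p = 0.00012). For all 3 genes, each *clf-29swn-21* library lay above both *swn-21* libraries. AT5G09210, a GC-rich sequence DNA-binding factor-like protein, had 0.179 and 0.405 CPM in *clf-29swn-21* from 12 counts, and none in *swn-21*, which is at least 4.04-fold higher. Its call (edgeR adjusted p = 0.031) rested on few counts and was lost without the second *clf-29swn-21* library (adjusted p = 0.098), without the first (0.10) or second (0.12) *swn-21* library and with temperature in the fit (0.053).

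PKR2, a CHD3-type chromatin remodelling factor related to PICKLE, was high in the PRC1 mutants and near 0 in *clf-29swn-21*. PKR2 had 0.394 and 0.174 CPM in *clf-29swn-21* and 3 counts in *swn-21*, a ratio of 4.71 with a counting interval of 1.31 to 25.6 that was not called by edgeR (adjusted p = 0.17). In the PRC1 mutants PKR2 had 36.9 and 36.2 CPM in *atbmi1a,b*, and 33.6 and 13.6 CPM in *atring1a,b*. The lowest of these 4 libraries was far above the higher *clf-29swn-21* library. AT5G05430, an RNA-binding protein, had 1.07 and 1.68 CPM in *clf-29swn-21* and 0.918 and 0.721 CPM in *swn-21*, the highest level of any member there (log2 fold change 0.56 ± 0.41 SE, edgeR adjusted p = 0.31). It overlaps the noncoding gene AT5G05435 on the other strand, at 4.62 and 4.92 CPM in *clf-29swn-21* and 5.61 and 6.25 CPM in *swn-21*, so that without knowledge of strand its level is uncertain. AT4G18330, of the family of the translation factor eIF2 gamma, had 0.250 and 0.579 CPM in *clf-29swn-21* and 0.145 and 0.0401 CPM in *swn-21* (log2 fold change 1.95 ± 0.75 SE, edgeR adjusted p = 0.091, unadjusted p = 0.039). It was the member that only the unadjusted criterion called.

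The most uneven gene was AT1G74140, a rhomboid-related intramembrane serine protease. It had the highest mean level of all members in the PRC1 mutants, at 81.0 and 70.9 CPM in *atbmi1a,b* and 24.0 and 12.8 CPM in *atring1a,b*. In *clf-29swn-21* it had 3 counts in the first library (0.107 CPM) and none in the second, and no count in *swn-21*, so that no fold is given. IDH-III, a subunit of mitochondrial NAD-dependent isocitrate dehydrogenase, had 0.215 and 0.347 CPM in *clf-29swn-21* and 0.0483 and 0.160 CPM in *swn-21* (log2 fold change 1.14 ± 0.97 SE, edgeR adjusted p = 0.39). In the PRC1 mutants IDH-III had 25.7 and 11.1 CPM in *atbmi1a,b*, and 15.2 and 10.4 CPM in *atring1a,b*. PKR2, IDH-III and AT1G74140 therefore had over 10 CPM in every PRC1 library and under 0.4 CPM in every *clf-29swn-21* library. The WD40 repeat gene AT4G35370 had 10.6 and 5.85 CPM in *atbmi1a,b*, and 8.25 and 4.21 CPM in *atring1a,b*, but only 3 counts in *clf-29swn-21* and 1 in *swn-21*.

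AT4G18900, a WD40 repeat gene whose best protein match AT4G18905 is also that of AT4G35370, behaved otherwise. It had 12.2 and 17.4 CPM in *clf-29swn-21* and 0.677 and 0.441 CPM in *swn-21* (log2 fold change 4.55 ± 0.53 SE, edgeR adjusted p = 0.00034), beside 18.4 and 9.06 CPM in *atbmi1a,b* and 38.5 and 46.8 CPM in *atring1a,b*. AT2G34020, a protein with calcium-binding EF hands, had 26.5 and 10.5 CPM in *clf-29swn-21* and 0.242 and 0.321 CPM in *swn-21* (log2 fold change 5.83 ± 0.59 SE, edgeR adjusted p = 0.00017). The 2 *clf-29swn-21* libraries of AT2G34020 were far apart but both above *swn-21*. PRK4, a leucine-rich repeat receptor-like kinase of the pollen receptor kinase family, had 0.501 and 1.27 CPM in *clf-29swn-21* and 0.387 and 0.0802 CPM in *swn-21* (log2 fold change 1.75 ± 0.78 SE, edgeR adjusted p = 0.11), and it overlaps AT3G20200 on the same strand. AT3G25080, an uncharacterized protein, had 0.608 and 1.10 CPM in *clf-29swn-21* and no count in *swn-21*, at least 12.1-fold higher (edgeR adjusted p = 0.0030), and 7.90 and 10.4 CPM in *atbmi1a,b* beside 4.24 and 3.19 CPM in *atring1a,b*. Both *clf-29swn-21* libraries of AT3G25080 therefore lay below all 4 PRC1 libraries.

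**Figure D3:**
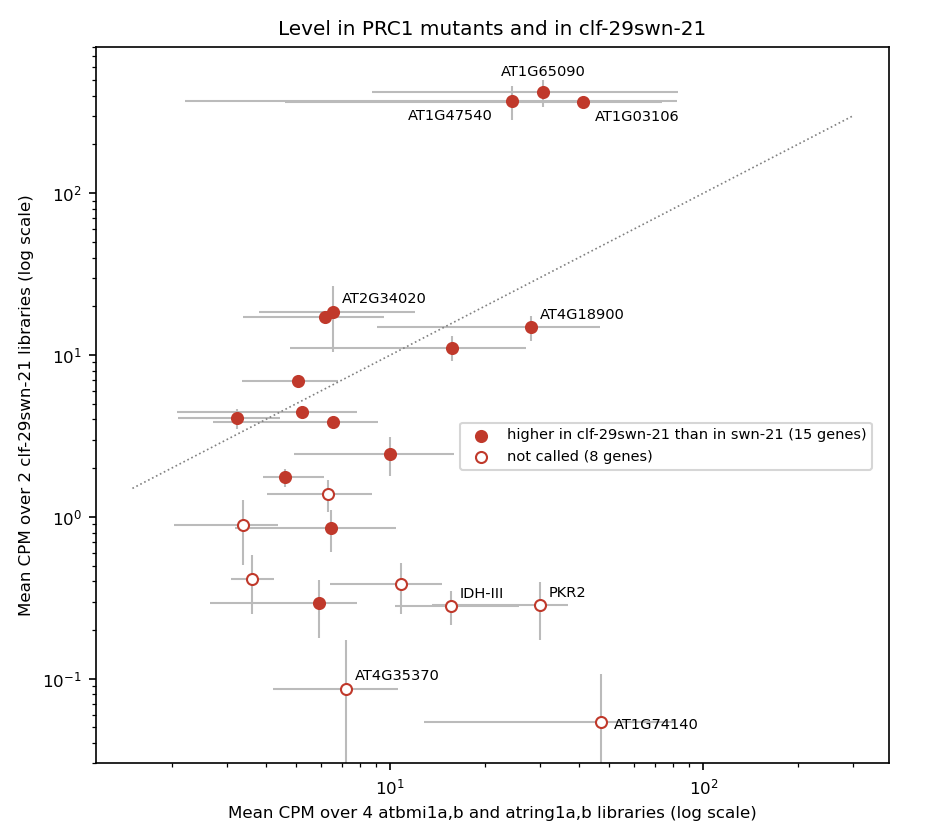
Mean CPM over the 2 *clf-29swn-21* libraries (y axis) against mean CPM over the 4 *atbmi1a,b* and *atring1a,b* libraries (x axis), both on log scales, 1 point per gene, with grey lines for the range of the libraries and a dotted line of equal levels. Filled points are the 15 genes called higher in *clf-29swn-21* than in *swn-21*, and AT1G74140, PKR2 and IDH-III lie far below the dotted line with means over 10 CPM in the PRC1 mutants.

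Levels of the members in *clf-29swn-21* stood both above and below those in the PRC1 mutants. Both *clf-29swn-21* libraries lay above all 4 PRC1 libraries for 4 members, below all of them for 12 members, and within or across their range for 7 members. The rule chose genes that were high in every PRC1 library, so lower levels in *clf-29swn-21* were favoured by the choice. No share over all genes was computed for this split. In *swn-21*, 18 members stayed under 0.3 CPM in both libraries, and no member exceeded 0.918 CPM. Members at 0.3 CPM or more in a *swn-21* library were AT1G27580, AT2G34020, PRK4, AT4G18900 and AT5G05430. Gene lists of the seed programme were called higher in the same comparison by edgeR almost throughout, with 13 of 13 seed storage genes, 9 of 9 oil body genes tested and 23 of 23 LEA genes tested. Of 17 embryo regulators tested 15 were called higher, and of 13 floral organ identity genes 12 were higher and 1 lower. Of 15 root markers tested 9 were called higher, and of 12 leaf photosynthesis markers 11 were called lower.

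H3K27me3 peaks, which did not enter the rule, were compared over the region from 1000 bp upstream of each gene to its end, with an overlap of at least 1 bp. Peaks were called by MACS in each library separately, and the lists differ in extent, with 4.94 to 26.0 Mb covered. In the first Col-0 list 18 of the 23 genes (78.3%) had a peak, against 26.1% of 11626 other silent genes and 21.4% of 32835 annotated genes. In the second Col-0 list, 14 genes (60.9%) had a peak, against 16.7% of other silent genes and 15.6% of all. All 14 were also marked in the first list. Among the 18 genes, peaks of the first list covered a median of 94.3% of the gene body, beside 72.4% over all genes with a peak in that list. The whole body was covered for 8 of them. By peak score, the members' best peaks in the first Col-0 list stood at a median percentile of 71.2 within that list.

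Genes with and without a call in *clf-29swn-21* were both marked in part. In the first Col-0 list 13 of the 15 called genes and 5 of the 8 other genes had a peak. AT1G65090, AT2G34020 and PRK4 had no peak in any of the 10 lists, although AT1G65090 reached the highest level of all members. AT1G27580 and AT1G74140 had a peak in each of the 4 lists of *clf-29*, *tfl2-2* and *lhp1-6*, but none in the lists of *atbmi1a,b*, *atring1a,b* or Col-0. Peaks covered 42.0% and 30.6% of the body of AT1G74140 in *clf-29*, 68.8% in *tfl2-2* and 27.1% in *lhp1-6*. Of all annotated genes without a Col-0 peak, 0.355% had this pattern, and 1.49% had peaks in the same 4 lists whatever the PRC1 mutant lists held. In AT4G18330 the peak of the first Col-0 list lay only upstream of the gene.

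**Figure D4:**
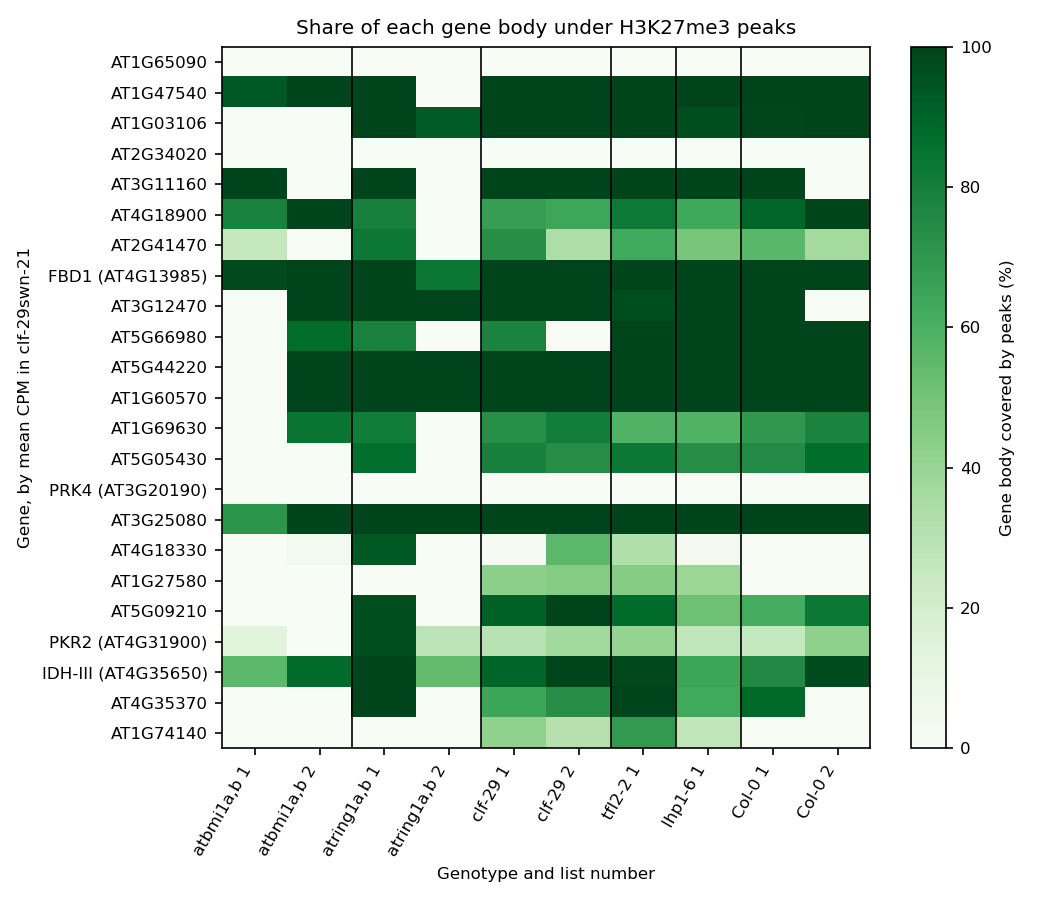
Percent of the body of each of the 23 genes that lay under H3K27me3 peaks in each of the 10 lists, from white (0%) to dark green (100%), with genes ordered by mean CPM in *clf-29swn-21*. AT1G65090, AT2G34020 and PRK4 are white throughout, and AT1G27580 and AT1G74140 are green only in *clf-29*, *tfl2-2* and *lhp1-6*.

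In the PRC1 mutants, where the genes were expressed, peaks were called at part of the genes. The first *atring1a,b* list, the widest of all, held a peak at all 18 genes marked in the first Col-0 list, and the second and narrowest lacked 9 of them (50%, against 57.9% of all genes marked in the first Col-0 list). The first *atbmi1a,b* list lacked 8 of the 18 genes (44.4%, against 29.9% of all marked genes and 24.4% of other silent marked genes), and the second lacked 7 (38.9%, against 42.3% and 44.3%). Because a gene can miss a peak in a shorter list, genes marked in both Col-0 lists were also followed through both lists of a mutant. Of these 14 genes, 3 had no peak in either *atbmi1a,b* list (21.4%, against 11.1% of all genes marked in both Col-0 lists), and 6 had a peak in both (42.9%, against 58.4%). The 3 genes were AT1G03106, AT5G05430 and AT5G09210. None of the 14 lacked a peak in both *atring1a,b* lists, and 7 had a peak in both (50%, against 58.9% of all such genes). In *clf-29*, *tfl2-2* and *lhp1-6*, where the genes were silent, 13 of the 14 had a peak in all 4 lists (92.9%, against 76.0% of all genes marked in both Col-0 lists), the exception being AT5G66980.

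AT1G03106 was the gene among these 3 with a peak in both *atring1a,b* lists. No peak was called there in either list of *atbmi1a,b*, the PRC1 mutant with the higher levels of its transcript. Peaks covered its body by 100% and 92.6% in *atring1a,b*, by 100% in both *clf-29* lists and by 99.3% and 100% in Col-0. Its peak in the second *atring1a,b* list scored 52.3, near the lowest score of that list (50.04), and the first *atring1a,b* list is the widest of all. A link of these peaks to the transcript level was not tested. AT3G25080, FBD1 and IDH-III had a peak in all 10 lists, including the 4 of the PRC1 mutants in which they were expressed. The lists hold no read counts, so the level of H3K27me3 under a peak was not analysed here, and no list of *clf-29swn-21* or *swn-21* was analysed here.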

How the data were processed

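RNA-seq of 14 libraries and H3K27me3 ChIP-seq of 10 libraries were used. The authors mapped reads to TAIR10 and deposited whole-number counts per gene, for which the submitters' processing notes name HTSeq. Reads on no gene or on several genes (2.66% to 3.43%) were left out. A deposited table of the authors' own comparisons (24 columns of log2 fold changes and p-values) was not used. The authors called peaks per library with MACS and deposited each with a score, used here only for ranks and a minimum of 100. Of 33602 genes, 32835 matched the RefSeq annotation of TAIR10.1, whose nuclear coordinates are those of TAIR10.

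CPM were counts over the sum of gene counts. Tests used edgeR 4.0.16 in R 4.3.3 with TMM scaling, filterByExpr, robust estimation and 7 groups (both LHP1 lines as 1), p-values being adjusted by Benjamini-Hochberg over 22060 genes, and all 23 members passed the filter. Simulated counts, with the spread estimated from these data, were also put through the same fit. That simulation set no gene silent in *swn-21* and high in other groups, so it does not check the calls of such members. Folds against 0 counts are bounds from 3 counts, and those against 1 to 3 counts are ratios with exact 95% intervals, which cover counting error only. No fold is given where both groups had 3 counts or fewer. Peaks and promoters were read in Python 3.11.15.

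The members and lists were chosen with earlier results of these data known. The named genes were the 12 members highest in PRC1 mutants, the 6 highest and 6 lowest in *clf-29swn-21*, list members, the 3 largest and 3 smallest ratios of *atring1a,b* to *atbmi1a,b*, genes beside the limits and the mutated PcG genes. The other members were named so that each is accounted for. Alternatives covered RLE factors, DESeq2 1.42.0, no filter, a replicate block, temperature, fewer libraries, other limits, peak regions and strands.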

Additional observations from a re-analysis of the deposited data

How the results depend on the processing

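The number of members called higher in *clf-29swn-21* against *swn-21* was 15 with RLE factors, without a filter on low counts and with DESeq2, and 14 with temperature in the fit or with the 4 libraries alone, where 16 members were tested. No share over all genes was computed for these alternatives. Leaving out a library in turn gave 14 to 15, and every alternative for which a count was made called a subset of the same 15 genes, except that the unadjusted criterion added AT4G18330. Differences between replicates did not correlate between *clf-29swn-21* and *swn-21* (-0.018), whereas they did among *atbmi1a,b*, *atring1a,b*, *clf-29* and Col-0 (0.27 to 0.76), which entered the fit but not the contrast, and the replicate block gave 15 calls and a median log2 fold change of 5.75. The median log2 fold change was 7.06 in the fit of 4 libraries, which left out 7 low members, and 5.01 to 5.92 with a library left out. Of 222 member values under alternatives, 215 kept direction and call and 4 lost the call, all of AT5G09210. Direction turned for 2 uncalled genes with a library left out, whose log2 fold changes ran from -0.48 to 0.99 (AT1G27580, below 0 without the second *clf-29swn-21* or the second *swn-21* library) and from -2.65 to 3.97 (AT4G35370, below 0 without the second *clf-29swn-21* library). The number of members was 8 at an upper limit of 0.1 CPM, 30 at 0.5 CPM, 51 at a lower limit of 1 CPM, 11 at 4 CPM and 23 with TMM library sizes. Members with a Col-0 peak numbered 14 to 18 over the alternatives, and on the gene strand alone the telo-box was in 3 and the ABRE core in 2 promoters. With 2 libraries per genotype and members at 0 to 37 counts in both libraries of *swn-21*, small changes of the low members were not detectable at this depth.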
